A study of Drosophila melanogaster with 16 samples.

Results

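The genes described here encode the cuticle protein families of Drosophila melanogaster, measured by RNA sequencing in the heads of male flies that carry a short or a long GGGGCC repeat transgene. They were taken as every gene whose symbol begins with Cpr and a digit, Twdl, Lcp and a digit, Ccp84, Pcp, Edg or Acp65. This gave 125 of the 17558 genes in the count tables: 70 Cpr, 26 Twdl, 17 Lcp, 7 Ccp84, 3 Edg, 1 Pcp and 1 Acp65 gene. A current Ensembl annotation of BDGP6 placed all 125 at the positions given with the counts, and listed 122 as protein coding and 3 as pseudogenes.

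The flies model the repeat expansion in C9ORF72 that causes frontotemporal dementia and amyotrophic lateral sclerosis. Chrom2-160R flies expressed the 160R repeat from chromosome 2 and Chrom2-5R flies the 5R repeat from the same chromosome. Chrom3-160R flies expressed 160R from chromosome 3 and Chrom3-5R flies 5R from chromosome 3. All flies were grown at 25 °C and were 5 to 8 days past eclosion, and each group has 4 libraries. Strand-specific libraries of total head RNA were made without poly(A) selection. The sources used here name no driver and do not say whether the 4 libraries of a group came from separate crosses. The spread that the p-values rest on may thus be technical, since it is that between libraries.

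Insect cuticle is made by a single layer of epidermal cells, which secrete chitin fibres together with chitin-binding proteins. Cpr proteins carry the Rebers and Riddiford chitin-binding domain and form the largest cuticle protein family of insects, and the lens of each eye facet is itself a cuticle. Tweedle (Twdl) proteins are a second chitin-binding family, Lcp and Pcp genes were named for larval and pupal cuticle, Edg genes for their dependence on the moulting hormone ecdysone, and Acp65Aa for adult cuticle. Most of these genes are transcribed in short bursts around a moult, and adult flies go on adding cuticle layers for a time after eclosion.

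Library totals ran from 19047916 to 30496479 counts for Chrom2-160R, from 11452337 to 23498476 for Chrom2-5R, from 48118158 to 49792428 for Chrom3-160R and from 42854987 to 53615117 for Chrom3-5R. The chromosome of insertion and the depth therefore cannot be told apart. Levels are given as CPM, counts scaled to a common library size with TMM factors. As a check of tissue, neuronal, photoreceptor and glial markers were present in all 16 libraries: elav stood at 293 to 382 CPM and repo at 88.6 to 117 CPM.

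Before the comparisons, 3 libraries need naming, because their cuticle protein levels stood apart from those of their group. Chrom2-160R replicate 1 was the highest library of its group in 39 of the 69 testable members (all tested genes 35.6%) and was at least 2 times the next library in 18 (26.1%), against 2.3% of all tested genes. Chrom3-160R replicate 4 was highest in 29 members (all tested genes 28.8%) and at least 2 times the next library in 16 (23.2%), against 1.02% of all tested genes. The control library Chrom3-5R replicate 2 was highest in 37 members (all tested genes 31.9%) and at least 2 times the next in 6 (8.7%), against 0.577% of all tested genes. Members whose difference rests on these libraries are given below with and without them.

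Of the 125 members, 69 had enough counts to be tested. These were 45 Cpr, 11 Twdl, 6 Lcp, 3 Ccp84 and 2 Edg genes, with Pcp and Acp65Aa. The 56 others had at most 128 counts over all 16 libraries and at most 49 in any one, and together held 0.429% of the members' counts. They include the whole cluster of 12 Twdl genes on 3R around TwdlD, a gene of larval body shape, and 15 of the 19 genes of the 65A cluster on 3L. Cpr65Ax2 and Lcp65Ab2 had 0 counts in every library, but each has a near-identical neighbour (Cpr65Ax1 and Lcp65Ab1) with which reads may be shared. A count of 0 also does not show that a gene is silent.

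One gene dominated the total. Per kilobase of gene span, introns included, Cpr72Ec averaged 291 CPM over the 16 libraries and ranked 73 among all genes. Cpr65Au followed at 162 CPM per kb, Cpr51A at 53.5, Cpr67B at 45.7, Cpr11B at 24.4, Cpr49Ag at 18.5, Cpr47Ee at 16.8, Cpr49Ae at 13.4, Cpr100A at 13.0 and Cpr57A at 12.2. The 10 highest members were thus all Cpr genes. The member of each other family with the highest mean CPM was far lower on the same scale: Pcp averaged 4.42 CPM per kb, TwdlG 2.71, Lcp65Ac 1.64, Ccp84Ab 1.36, Acp65Aa 0.638 and Edg78E 0.563. Per kilobase Edg91, named here after its values were seen, averaged 0.631 and so exceeded Edg78E.

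The summed level of all members was 1702, 1264, 1265 and 1244 CPM in the 4 Chrom2-160R libraries, against 835, 848, 802 and 836 CPM in Chrom2-5R. On chromosome 3 it was 1089.9, 1342, 1306 and 1486 CPM in Chrom3-160R, against 1002, 1017, 887 and 977 CPM in Chrom3-5R. The 160R and 5R libraries did not overlap in either line. Without Cpr72Ec the sum was 1179.9, 669, 668 and 663 CPM in Chrom2-160R, against 612, 602, 573 and 621 CPM in Chrom2-5R, and 663, 699, 696 and 1020.4 CPM in Chrom3-160R, against 598, 711, 596 and 599.7 CPM in Chrom3-5R. In the chromosome 3 line the sums then overlapped, since Chrom3-5R replicate 2 exceeded 3 of the 4 Chrom3-160R libraries. In these bulk samples, fewer cells of a type and less RNA per cell cannot be told apart.

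**Figure D1:**
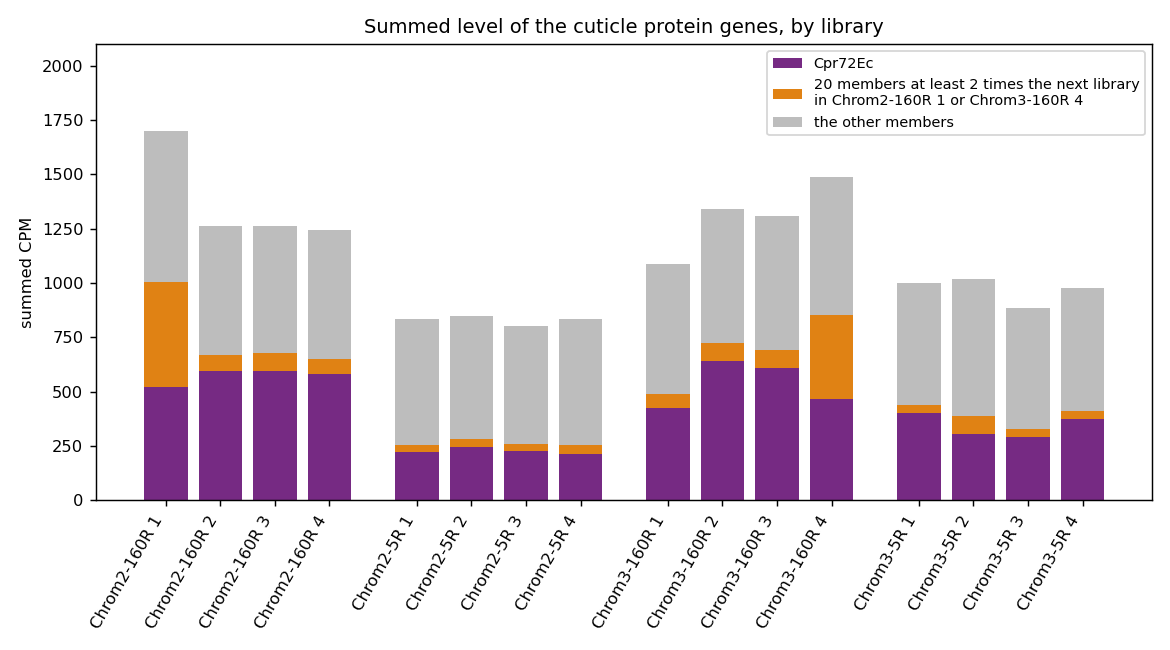
Summed CPM (y axis, from 0) of the 125 cuticle protein genes in each of the 16 libraries (x axis), split into Cpr72Ec, the 20 members that were at least 2 times the next library in Chrom2-160R replicate 1 or Chrom3-160R replicate 4, and the other members. Cpr72Ec stood at 522 to 596 CPM in Chrom2-160R, against 214 to 246 CPM in Chrom2-5R, and the 20 members reached 485 CPM in Chrom2-160R replicate 1 and 389 CPM in Chrom3-160R replicate 4.

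With the transgene on chromosome 2, 10 of the 69 tested members rose in 160R heads (14.5%) and 1 fell (1.45%), at an edgeR adjusted p below 0.05. Over all 13525 tested genes, 12.8% rose and 13.3% fell, so the share that rose was near the background. The median log2 change of the tested members was 0.15, against 0.01 for all tested genes. With the transgene on chromosome 3, 3 members rose (4.35%) and 2 fell (2.9%), where 0.673% of all tested genes rose and 1.43% fell, and the median log2 change was 0.25, against 0.00. The count of 10 was 4 without Chrom2-160R replicate 1, 6 without Chrom2-160R replicate 2, and 5, 5 and 4 without Chrom2-5R replicates 1, 2 and 3. The count of 3 was 1 without Chrom3-160R replicate 2 or 3 or Chrom3-5R replicate 3. With Chrom2-160R replicate 1 and Chrom3-160R replicate 4 both left out, 9 of 70 tested members rose on chromosome 2 (12.9%). On chromosome 3, 3 rose (4.29%) in that fit. Of all genes tested in it, 10.9% rose on chromosome 2 and 0.846% on chromosome 3. These libraries were picked after seeing the data. By family, the 10 members that rose on chromosome 2 were 8 Cpr genes, TwdlE and Ccp84Ag, and the 1 that fell was Edg78E. On chromosome 3 the 3 that rose were Cpr genes and the 2 that fell were Twdl genes.

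**Figure D2:**
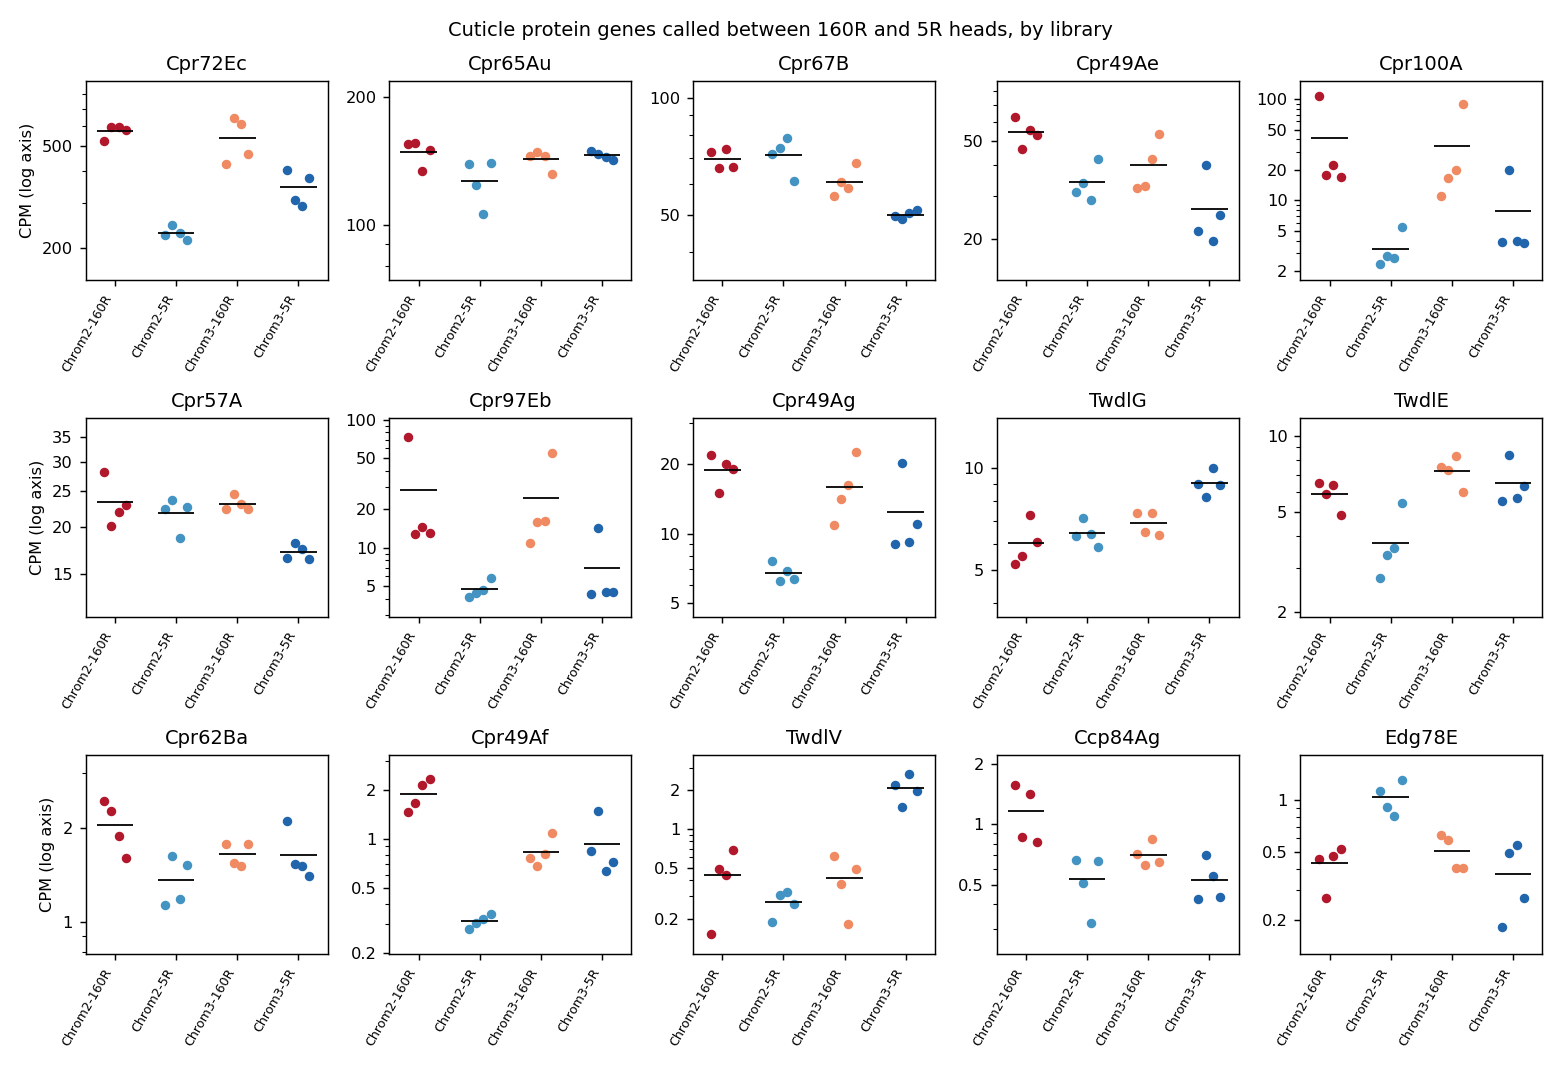
Level in CPM (y axis, log scale, a separate range in each panel) of the 15 members that rose or fell between 160R and 5R heads in either line, with 1 point per library and a bar at the group mean, groups along the x axis. Cpr72Ec, Cpr49Af and Cpr49Ag were higher in all 4 Chrom2-160R libraries than in any Chrom2-5R library, and TwdlV was higher in all 4 Chrom3-5R libraries than in the 12 others.

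Cpr72Ec, a major protein of the corneal lens, changed most firmly and was the only member that rose in both lines. It lies on 3L:16365894-16367340, minus strand (FBgn0036619). Its level was 522, 596, 596 and 581 CPM in Chrom2-160R heads, against 224, 246, 229 and 214 CPM in Chrom2-5R heads. All 4 Chrom2-160R libraries lay above all 4 Chrom2-5R libraries, with means of 574 ± 35.3 and 228 ± 13.2 CPM (SD, n = 4 each) and a log2 change of 1.33 ± 0.13 (SE, edgeR adjusted p = 1.1e-05), a 2.51-fold rise. Replicate 1, the library that led many other members, was the lowest of the Chrom2-160R group for this gene.

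On chromosome 3 Cpr72Ec stood at 426, 643, 611 and 466 CPM in Chrom3-160R heads, against 404, 307, 291 and 377 CPM in Chrom3-5R heads. These groups did not overlap either, but the lowest Chrom3-160R library was close to the highest Chrom3-5R library. The change was a log2 change of 0.64 ± 0.13 (SE, edgeR adjusted p = 0.017). This call ended without Chrom3-160R replicate 2 or 3 or Chrom3-5R replicate 2 or 3, and when only the 8 libraries compared were fitted, with adjusted p up to 0.12 over the alternatives run. The chromosome 3 change was smaller than the chromosome 2 change by 0.69 on the log2 scale (difference -0.69 ± 0.18, edgeR adjusted p = 0.037), and this call also ended without any one of 11 libraries and without the low-count filter. The Chrom2-5R libraries were the lowest 4 of all 16.

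The lens contains other known proteins, and these were looked at after the result for Cpr72Ec was seen. Of 4 lens genes, 3 rose on chromosome 2, where 12.8% of all tested genes did. Cpr72Ec, for which the list was drawn up, is 1 of these 3, so the count cannot be set against that share. On chromosome 3 only Cpr72Ec itself rose. Crystallin, listed as Cry, stood at 274, 118, 118 and 106 CPM in Chrom2-160R heads, against 88.5, 77.2, 62.5 and 76 CPM in Chrom2-5R heads (log2 change 1.02 ± 0.31, SE, edgeR adjusted p = 0.028). Retinin, a lens surface protein, stood at 1076, 753, 780.4 and 629 CPM in Chrom2-160R heads, against 445, 418, 388 and 536 CPM in Chrom2-5R heads (log2 change 0.86 ± 0.24, edgeR adjusted p = 0.02). In both genes all 4 Chrom2-160R libraries lay above all 4 Chrom2-5R libraries, with replicate 1 the highest. Without that library neither was called (adjusted p = 0.071 for Cry and 0.066 for retinin), and the count of 3 was also 1 without Chrom2-5R replicate 2 or 3. Cpr66D, a member that is also a lens protein, stood at 4.87, 3.7, 2.97 and 3.4 CPM in Chrom2-160R heads, against 3.77, 3.05, 4.25 and 2.61 CPM in Chrom2-5R heads. Its groups overlapped, and its log2 change was 0.13 ± 0.17 (edgeR adjusted p = 0.64).

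Photoreceptors make up much of the eye beneath the lens. The gene of their main visual pigment (ninaE) stood at 4906, 5528, 4680.4 and 4140.5 CPM in Chrom2-160R heads, against 11539, 7671, 7793 and 6122 CPM in Chrom2-5R heads. It fell by 0.78 on the log2 scale (SE 0.15, edgeR adjusted p = 0.0014). Of the other photoreceptor markers looked at, Rh4 and Rh6 also fell on chromosome 2, while ninaC, trp, norpA, Rh3 and Rh5 were not called. On chromosome 3 none of these genes was called, ninaE among them.

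A run of 3 neighbouring genes of the 49A cluster on 2R rose on chromosome 2. The cluster holds 8 Cpr genes in 38.5 kb (2R:12376626-12415170), of which 7 were tested. Cpr49Ae, Cpr49Af and Cpr49Ag are adjacent on the plus strand, 823 and 747 bases apart, and these were the 3 that rose. Over all tested genes 12.8% rose, and in each other cluster of members looked at 0 or 1 did. Those clusters held at most 4 tested genes each, and in 72E and 97E 1 of 2 rose. The 49A cluster thus had the most by count, but not by share. No role specific to any one of them is given here.

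Of these 3 genes, Cpr49Af had the largest relative change on chromosome 2, at a low level. It stood at 1.47, 1.66, 2.13 and 2.32 CPM in Chrom2-160R heads (29 to 71 counts), against 0.283, 0.305, 0.322 and 0.348 CPM in Chrom2-5R heads (3 to 8 counts). The Chrom2-5R libraries were the lowest of all 16, the 12 others lying at 0.64 to 2.32 CPM, and the change was a log2 change of 2.58 ± 0.32 (SE, edgeR adjusted p = 3.2e-05). On chromosome 3 it stood at 0.764, 0.682, 0.804 and 1.09 CPM in Chrom3-160R heads, against 0.848, 1.49, 0.64 and 0.721 CPM in Chrom3-5R heads, and these overlapped (log2 change -0.15 ± 0.23, edgeR adjusted p = 0.83). The change on chromosome 3 minus that on chromosome 2 was -2.72 ± 0.40 (edgeR adjusted p = 7.1e-04) and passed in all 25 alternatives.

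Cpr49Ag stood at 21.8, 14.9, 20.004 and 19 CPM in Chrom2-160R heads, against 7.63, 6.24, 6.88 and 6.4 CPM in Chrom2-5R heads. The groups were far apart, and again the Chrom2-5R libraries were the lowest 4 of all 16, with a log2 change of 1.49 ± 0.29 (SE, edgeR adjusted p = 0.0025). On chromosome 3 it stood at 10.9, 14.1, 16.3 and 22.6 CPM in Chrom3-160R heads, against 9.05, 20.2, 9.18 and 11 CPM in Chrom3-5R heads, where replicate 2 of the control overlapped the 160R range (log2 change 0.37 ± 0.26, edgeR adjusted p = 0.55).

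Cpr49Ae, the most abundant of the cluster in CPM, stood at 62.5, 46.4, 55.5 and 53.1 in Chrom2-160R heads, against 31.2, 33.8, 28.8 and 42.3 in Chrom2-5R heads. All 4 Chrom2-160R libraries were the higher, with a log2 change of 0.67 ± 0.23 (SE, edgeR adjusted p = 0.047). This p was close to the threshold, and the call ended without any one of the Chrom2-160R libraries or of Chrom2-5R replicates 1, 2 and 3, and without the low-count filter. In the chromosome 3 line it stood at 32.1, 33, 42.1 and 53.4 CPM in Chrom3-160R heads, against 21.6, 39.9, 19.6 and 25.1 CPM in Chrom3-5R heads, with overlap through replicate 2 of the control (log2 change 0.60 ± 0.22, edgeR adjusted p = 0.23). The flanking Cpr49Ah stood at 2.13, 2.47, 2.8 and 2.42 CPM in Chrom2-160R heads, against 2.26, 2.89, 3.76 and 3.09 CPM in Chrom2-5R heads, which overlapped.

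**Figure D3:**
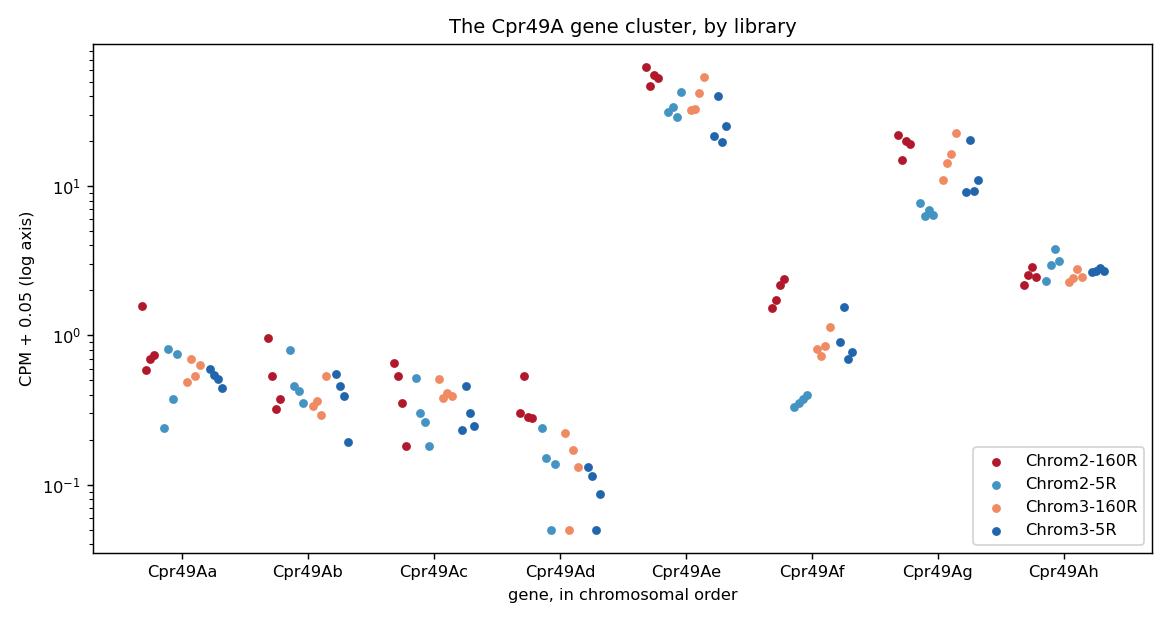
Level (y axis, CPM + 0.05, log scale) of the 8 genes of the 49A cluster in chromosomal order (x axis), with 1 point per library coloured by group. Cpr49Ae, Cpr49Af and Cpr49Ag were higher in all 4 Chrom2-160R libraries than in all 4 Chrom2-5R libraries, while the points of Cpr49Ah overlapped between these groups.

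A set of Cpr, Ccp84 and Lcp genes was led by 1 library of each 160R group. Both Chrom2-160R replicate 1 and Chrom3-160R replicate 4 were at least 2 times the next library in 14 members, which is 77.8% of the 18 led by the first and 87.5% of the 16 led by the second. They are Ccp84Aa, Ccp84Ab, Cpr47Ea, Cpr50Cb, Cpr62Bb, Cpr62Bc, Cpr64Aa, Cpr76Bb, Cpr76Bd, Cpr92F, Cpr97Ea, Cpr97Eb, Cpr100A and Lcp65Ac. The set was chosen on these levels, so what follows on it is a description. Of the 6 members led by Chrom3-5R replicate 2, 5 belong to it. Some sit side by side in the genome, such as Cpr97Ea with Cpr97Eb on 3R and Cpr62Bb with Cpr62Bc on 3L.

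Cpr97Ea stood at 63.8, 5.53, 4.69 and 5.26 CPM in Chrom2-160R heads, against 0.66, 1.37, 1.02 and 3.09 CPM in Chrom2-5R heads. In the other line it stood at 3.94, 4.75, 4.84 and 50.5 CPM in Chrom3-160R heads, against 0.747, 4.28, 0.914 and 0.793 CPM in Chrom3-5R heads. The leading library was 11.5 times the next in Chrom2-160R and 10.4 times the next in Chrom3-160R, and the other 3 of each group in turn lay above all 5R libraries of their line but Chrom3-5R replicate 2. The log2 change was 3.54 ± 1.38 on chromosome 2 (edgeR adjusted p = 0.081) and 3.26 ± 1.21 on chromosome 3 (edgeR adjusted p = 0.23), neither past the threshold.

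Its neighbour Cpr97Eb stood at 73.6, 12.8, 14.6 and 13.1 CPM in Chrom2-160R heads, against 4.15, 4.42, 4.68 and 5.83 CPM in Chrom2-5R heads. No library overlapped, with a log2 change of 2.54 ± 0.80 (SE, edgeR adjusted p = 0.035). Without Chrom2-160R replicate 1 the log2 change was 1.48 (adjusted p = 0.14), and the call ended also without any one of the 4 Chrom2-5R libraries. The gene was not called with limma-voom (adjusted p = 0.12), nor when only the 8 libraries compared were fitted (edgeR adjusted p = 0.066). With Chrom2-160R replicate 1 and Chrom3-160R replicate 4 both left out, it was called on chromosome 2 (log2 change 1.47, edgeR adjusted p = 0.036). Those libraries were picked on the members' levels. With the transgene on chromosome 3 it stood at 10.9, 16.1, 16.4 and 55.3 CPM in Chrom3-160R heads, against 4.4, 14.2, 4.52 and 4.51 CPM in Chrom3-5R heads (log2 change 1.83 ± 0.70, edgeR adjusted p = 0.24).

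Cpr100A stood at 108, 17.6, 22.3 and 16.8 CPM in Chrom2-160R heads, against 2.36, 2.79, 2.69 and 5.48 CPM in Chrom2-5R heads. Every Chrom2-160R library was above every Chrom2-5R library, with a log2 change of 3.55 ± 1.05 (SE, edgeR adjusted p = 0.026), the largest change of any member called. Without Chrom2-160R replicate 1 it was 2.44 (adjusted p = 0.092), and the call ended also without Chrom2-5R replicate 1, 2 or 3. Cpr100A was not called with limma-voom either (adjusted p = 0.11). With Chrom2-160R replicate 1 and Chrom3-160R replicate 4 both left out, it was called on chromosome 2 (log2 change 2.43, edgeR adjusted p = 0.026). Those libraries were picked on the members' levels. In the chromosome 3 line it stood at 11, 16.7, 19.7 and 89.4 CPM in Chrom3-160R heads, against 3.84, 19.7, 3.95 and 3.77 CPM in Chrom3-5R heads, with the Chrom3-5R replicate 2 value inside the 160R range (log2 change 2.13 ± 0.87, edgeR adjusted p = 0.27).

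Cpr62Bc and Cpr76Bd showed the same pattern of libraries. Cpr62Bc stood at 62.5, 4.99, 4.62 and 5.36 CPM in Chrom2-160R heads, against 1.79, 1.52, 1.77 and 3.26 CPM in Chrom2-5R heads, and at 5.01, 3.99, 4.62 and 50.2 CPM in Chrom3-160R heads, against 1.76, 5.6, 1.74 and 1.86 CPM in Chrom3-5R heads. Cpr76Bd stood at 78.4, 7.25, 6.75 and 6.53 CPM in Chrom2-160R heads, against 2.45, 2.59, 2.79 and 3.44 CPM in Chrom2-5R heads, and at 6.61, 9.21, 7.25 and 56.6 CPM in Chrom3-160R heads, against 2.85, 5.75, 2.92 and 3.23 CPM in Chrom3-5R heads. In both genes all 160R libraries lay above all 5R libraries of their line on chromosome 2. Their log2 changes there were 3.14 ± 1.29 and 3.08 ± 1.12 (SE), with edgeR adjusted p = 0.095 and 0.061.

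At a lower level, Ccp84Ab stood at 5.88, 0.859, 0.978 and 0.49 CPM in Chrom2-160R heads, against 0.188, 0.152, 0.107 and 0.479 CPM in Chrom2-5R heads. Lcp65Ac stood at 3.5, 0.805, 1.15 and 1.05 CPM in Chrom2-160R heads, against 0.848, 0.863, 0.752 and 0.566 CPM in Chrom2-5R heads. The adult cuticle gene Acp65Aa, led by Chrom2-160R replicate 1 alone by this measure, stood at 1.22, 0.537, 0.236 and 0.163 CPM in Chrom2-160R heads, against 0.377, 0.66, 0.322 and 0.609 CPM in Chrom2-5R heads. In each of these 3 genes replicate 1 was the highest Chrom2-160R library, and none of the 3 passed the test in either line.

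The libraries outside these leaders also differed in several of the 14 members. In 8 of the 14 members the other 3 Chrom2-160R libraries stood above all 4 Chrom2-5R libraries, where 15.3% of all tested genes did so. In 10 of the 14 the other 3 Chrom3-160R libraries stood above the 3 Chrom3-5R libraries other than replicate 2, where 14.1% of all tested genes did so. With Chrom2-160R replicate 1 and Chrom3-160R replicate 4 both left out, Cpr76Bd rose by a log2 change of 1.24 on chromosome 2 (edgeR adjusted p = 0.0026) and 1.06 on chromosome 3 (edgeR adjusted p = 0.013).

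Without those 2 libraries, 5 of the 14 rose on chromosome 2, against 2 with all libraries, and 1 on chromosome 3, against 0. In that fit 10.9% of all tested genes rose on chromosome 2 and 0.846% on chromosome 3, against 12.9% and 4.29% of the 70 members tested. With Chrom3-5R replicate 2 also left out, 6 of the 14 rose on chromosome 3, while Ccp84Aa was not tested in that fit. Among the 6 were Cpr97Ea at a log2 change of 2.46 (edgeR adjusted p = 5.8e-04) and Cpr97Eb at 1.68 (edgeR adjusted p = 4.9e-06). With Chrom3-5R replicate 2 kept, the changes of these genes were 1.43 and 1.06 (edgeR adjusted p = 0.25 and 0.21). These libraries were left out because of the members' own levels, which narrows the spread by construction. Leaving out a high control library also lowers the Chrom3-5R mean and so enlarges the change. The counts therefore describe the remaining libraries and are no separate test. Over the 67 members tested in that last fit, 10 rose on chromosome 3 (14.9%), where 2.38% of all genes tested in it did. For the same reason these shares cannot be set against each other.

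**Figure D4:**
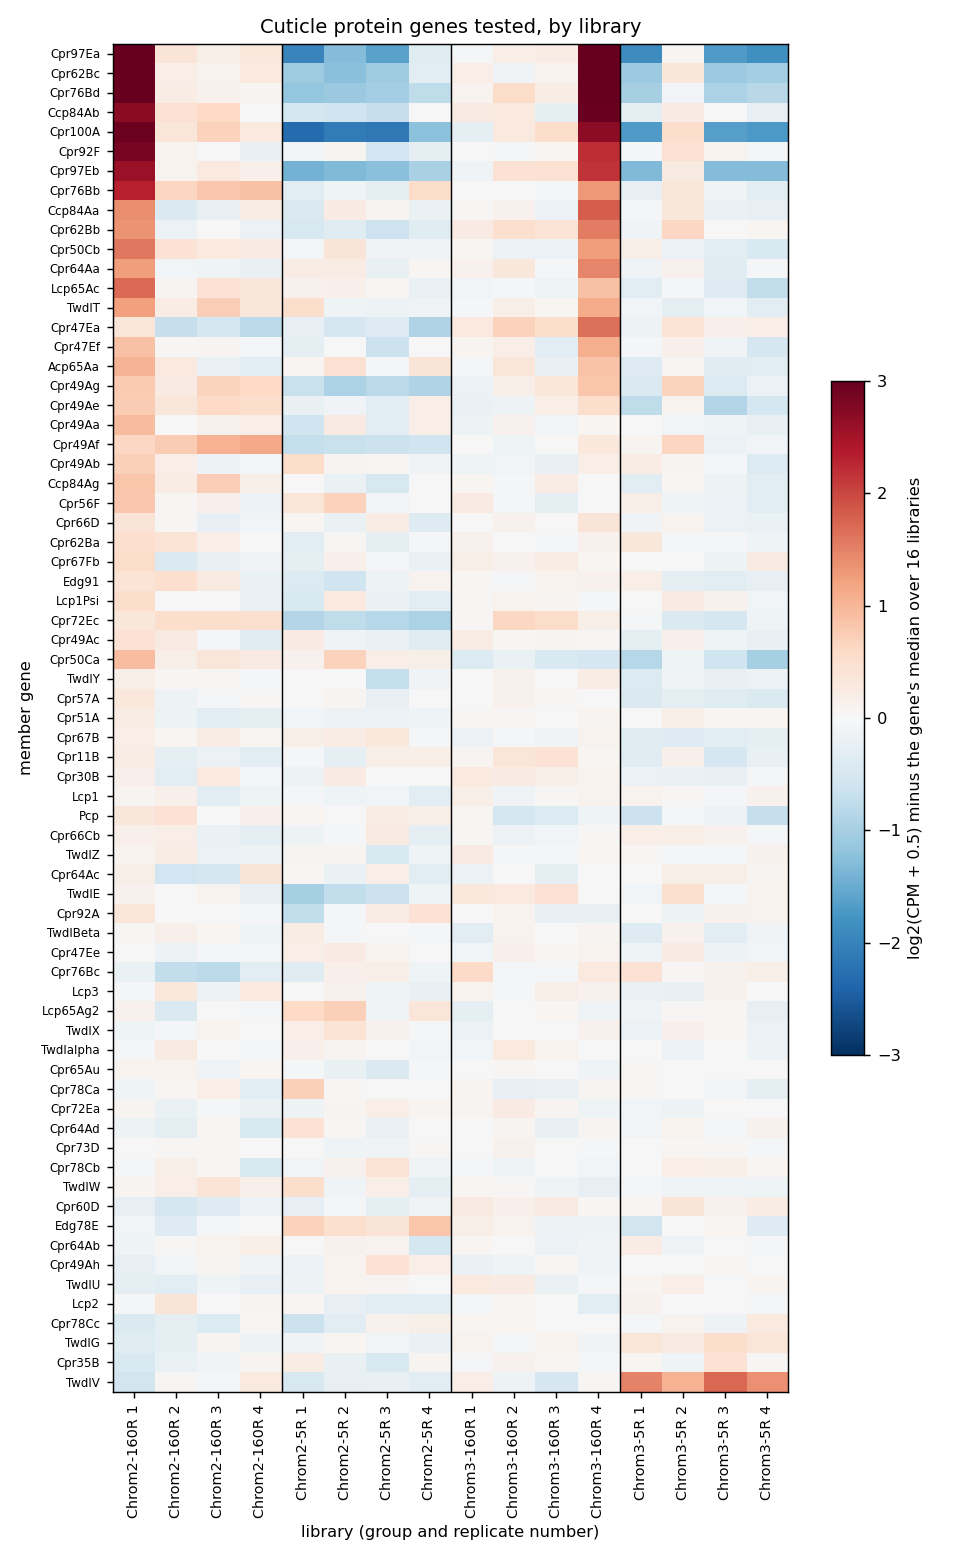
Level of the 69 tested members (rows) in the 16 libraries (columns, black lines between groups), as log2(CPM + 0.5) minus the gene's median over the libraries. The colour scale is clipped at 3 on either side. Rows are sorted by the sum of Chrom2-160R replicate 1 and Chrom3-160R replicate 4, whose columns are dark red in the top rows, such as Cpr97Ea at 63.8 and 50.5 CPM.

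Other Cpr genes changed less. Cpr65Au, second in level per kilobase, stood at 155, 156, 134 and 149.7 CPM in Chrom2-160R heads, against 139, 124, 106 and 139.7 CPM in Chrom2-5R heads. The groups overlapped, with a log2 change of 0.22 ± 0.07 (SE, edgeR adjusted p = 0.03). Cpr62Ba stood at 2.43, 2.25, 1.89 and 1.6 CPM in Chrom2-160R heads, against 1.13, 1.62, 1.18 and 1.52 CPM in Chrom2-5R heads, overlapping at the edge, with a log2 change of 0.54 ± 0.18 (SE, edgeR adjusted p = 0.039). Both calls ended when any of several single libraries was left out, Chrom2-160R replicate 1 among them, with edgeR adjusted p up to 0.095 and 0.11. They also ended when only the 8 libraries compared were fitted (edgeR adjusted p = 0.11 and 0.08). Cpr62Ba was not called with DESeq2 (adjusted p = 0.069) or limma-voom (adjusted p = 0.1) either. On chromosome 3 their log2 changes were -0.03 ± 0.07 and 0.01 ± 0.15 (edgeR adjusted p = 0.89 and 0.99).

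Cpr67B and Cpr57A rose on chromosome 3 by small amounts, and in both the Chrom3-5R group was the lowest of the 4 groups. Cpr67B stood at 55.7, 60.8, 58.6 and 67.8 CPM in Chrom3-160R heads, against 49.5, 48.6, 50.6 and 51.5 CPM in Chrom3-5R heads. No library overlapped, with a log2 change of 0.28 ± 0.07 (SE, edgeR adjusted p = 0.049), but the call ended without any one of 7 of the 8 libraries compared. The 12 libraries outside Chrom3-5R lay at 55.7 to 78.8 CPM. Cpr57A stood at 22.5, 24.7, 23.1 and 22.5 CPM in Chrom3-160R heads, against 16.6, 18.1, 17.4 and 16.4 CPM in Chrom3-5R heads, with a log2 change of 0.44 ± 0.08 (SE, edgeR adjusted p = 0.0075), and the 12 other libraries lay at 18.7 to 28.1 CPM. The counts of Cpr57A equalled those of Obp57d, an odorant-binding protein gene on the same strand that spans it, in all 16 libraries, so the change cannot be assigned to either gene.

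Of the remaining members among the 10 highest per kilobase, 3 passed the test in neither line. Cpr51A stood at 169, 131, 117 and 119 CPM in Chrom2-160R heads, against 137, 129, 129 and 134 CPM in Chrom2-5R heads. Cpr47Ee stood at 28.6, 25.6, 27.9 and 27.6 CPM in Chrom2-160R heads, against 32.7, 33.9, 30.6 and 28.5 CPM in Chrom2-5R heads. Cpr11B stood at 28.9, 35.6, 36.9 and 28.7 CPM in Chrom3-160R heads, against 21.2, 30.5, 19 and 23.2 CPM in Chrom3-5R heads. Only Cpr47Ee among them overlaps no other annotated gene.

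Of the 11 tested Tweedle genes, 2 fell on chromosome 3 and 1 rose on chromosome 2, where 1.43% and 12.8% of all tested genes did. TwdlV, on 3R:4254708-4255833 (plus strand, FBgn0037227), stood at 0.611, 0.37, 0.181 and 0.484 CPM in Chrom3-160R heads (9 to 32 counts), against 2.2, 1.47, 2.67 and 1.98 CPM in Chrom3-5R heads (69 to 117 counts). It fell in Chrom3-160R heads, with a log2 change of -2.32 ± 0.29 (SE, edgeR adjusted p = 1.5e-04). The Chrom3-5R group stood alone, since the 12 other libraries lay at 0.152 to 0.686 CPM. In the chromosome 2 line TwdlV stood at 0.152, 0.483, 0.439 and 0.686 CPM in Chrom2-160R heads, against 0.188, 0.305, 0.322 and 0.261 CPM in Chrom2-5R heads, with overlap (log2 change 0.72 ± 0.48, edgeR adjusted p = 0.29). The change on chromosome 3 minus that on chromosome 2 was -3.04 ± 0.55 (edgeR adjusted p = 0.0032), and it passed in all 25 alternatives.

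Its neighbour TwdlG, the highest Tweedle gene, showed a smaller difference of the same direction. It stood at 7.39, 6.49, 7.4 and 6.35 CPM in Chrom3-160R heads, against 8.97, 8.22, 10.03 and 8.91 CPM in Chrom3-5R heads. No library overlapped, and the Chrom3-5R group again lay above the 12 others, at 5.22 to 7.4 CPM. The log2 change was -0.39 ± 0.10 (SE, edgeR adjusted p = 0.043), and the call ended without any one of 6 libraries, with adjusted p up to 0.17. TwdlE stood at 6.49, 5.85, 6.38 and 4.87 CPM in Chrom2-160R heads, against 2.73, 3.35, 3.6 and 5.39 CPM in Chrom2-5R heads, overlapping through Chrom2-5R replicate 4, with a log2 change of 0.60 ± 0.19 (SE, edgeR adjusted p = 0.029). That call ended without any one of 6 libraries, Chrom2-160R replicate 1 among them, and with limma-voom (adjusted p = 0.078). The other 8 tested Tweedle genes passed the test in neither line.

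Edg78E, a gene of ecdysone-dependent pupal cuticle, was the only member that fell on chromosome 2. It stood at 0.456, 0.268, 0.472 and 0.523 CPM in Chrom2-160R heads (5 to 16 counts), against 1.13, 0.914, 0.806 and 1.31 CPM in Chrom2-5R heads (12 to 30 counts). The Chrom2-5R group was the highest of the 4, with the 12 other libraries at 0.182 to 0.631 CPM, and the change was a log2 change of -1.23 ± 0.33 (SE, edgeR adjusted p = 0.012). With the transgene on chromosome 3 it stood at 0.631, 0.584, 0.402 and 0.403 CPM in Chrom3-160R heads, against 0.182, 0.49, 0.548 and 0.27 CPM in Chrom3-5R heads, with overlap (log2 change 0.46 ± 0.29, edgeR adjusted p = 0.5). The difference between the lines was 1.69 ± 0.44 (edgeR adjusted p = 0.03), a call that ended without any one of 6 libraries.

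Ccp84Ag, from the 84A cuticle cluster on 3R, stood at 1.57, 0.859, 1.42 and 0.816 CPM in Chrom2-160R heads (16 to 42 counts), against 0.66, 0.508, 0.322 and 0.653 CPM in Chrom2-5R heads (6 to 15 counts). All 4 Chrom2-160R libraries were the higher, with a log2 change of 1.13 ± 0.29 (SE, edgeR adjusted p = 0.0086), and the call held in all 17 alternatives in which the gene was tested. On chromosome 3 it stood at 0.707, 0.623, 0.844 and 0.645 CPM in Chrom3-160R heads, against 0.424, 0.703, 0.548 and 0.433 CPM in Chrom3-5R heads, with overlap (log2 change 0.42 ± 0.24, edgeR adjusted p = 0.43). No Lcp gene passed the test in either line, and neither did Pcp or Acp65Aa.

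**Figure D5:**
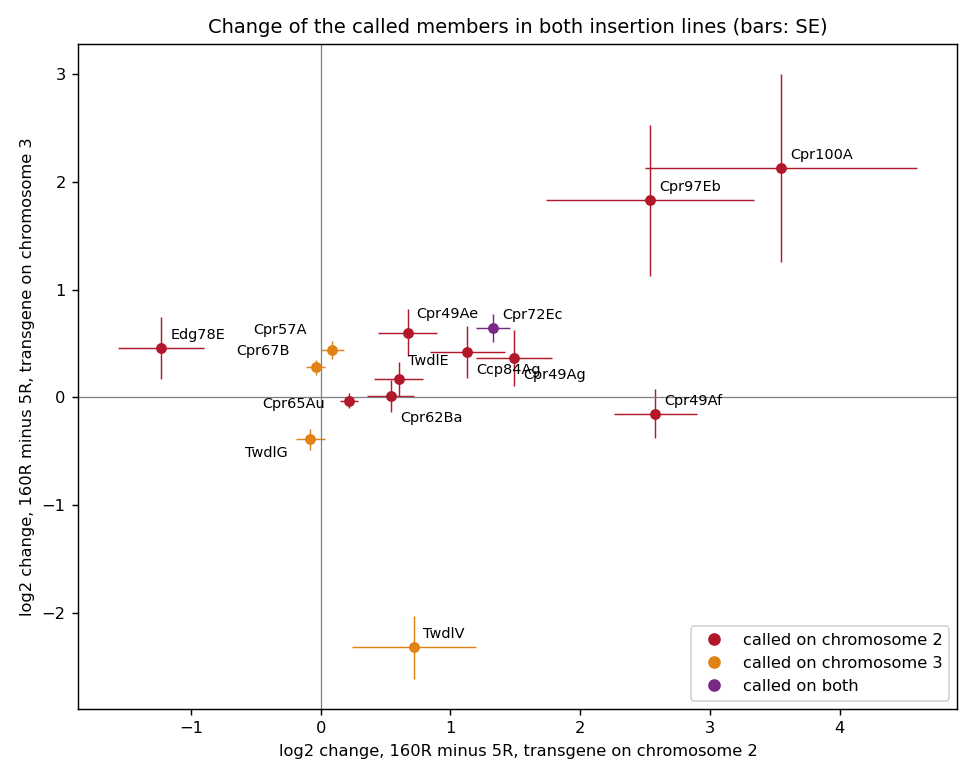
Log2 change, 160R minus 5R, of the 15 members called in either line, with the transgene on chromosome 2 (x axis) and on chromosome 3 (y axis), bars showing the SE. The 2 changes come from separate groups of libraries. Cpr72Ec was called in both lines (1.33 and 0.64), Cpr49Af lay far along the chromosome 2 axis at 2.58 and -0.15, and TwdlV lay low on the chromosome 3 axis at -2.32.

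The change differed between the lines for 4 of 69 members (5.8%), against 7.27% of all tested genes. It was higher on chromosome 3 for 1 member and lower for 3, where 3.9% and 3.36% of all tested genes were. These were Cpr49Af, TwdlV, Cpr72Ec and Edg78E, described above. In each of them 1 of the 5R control groups stood apart from the 12 other libraries: Chrom2-5R below in Cpr49Af and Cpr72Ec and above in Edg78E, and Chrom3-5R above in TwdlV. Over the tested members, Chrom2-5R lay below all 12 other libraries in 4 (5.8%) and above them in 1 (1.45%), where 3.53% and 4.08% of all tested genes did so. Chrom3-5R lay above the 12 others in 2 members (2.9%) and below them in 2 (2.9%), where 1.77% and 1.36% of all tested genes did so. Neither 160R group lay above or below the 12 others in any member, where 3.3% of all tested genes lay above and 3.21% below in Chrom2-160R, and 0.591% above and 0.466% below in Chrom3-160R.

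The lines also differed within each repeat length. Between the 5R controls, 8 members were higher in Chrom3-5R than in Chrom2-5R (11.6%) and 6 were lower (8.7%), where 15.4% and 14.9% of all tested genes were. The largest were TwdlV at a log2 difference of 2.89 ± 0.38, Cpr49Af at 1.52 ± 0.33, Cpr49Ag at 0.88 ± 0.29 and TwdlE at 0.74 ± 0.18 (SE, edgeR adjusted p = 2.9e-05, 0.0024, 0.036 and 0.0061). Cpr72Ec followed at 0.60 ± 0.13 and TwdlG at 0.49 ± 0.10. The Cpr49Ag call ended without Chrom3-5R replicate 2, where its log2 difference was 0.53, or any one of the Chrom2-5R libraries, with limma-voom and when only the 8 libraries compared were fitted, with adjusted p up to 0.09. The largest of the lower members were Edg78E at -1.49 ± 0.31, Cpr50Ca at -1.11 ± 0.24 and Lcp65Ag2, a gene with near-identical copies, at -1.08 ± 0.36. Pcp, Cpr67B and Cpr57A were lower by log2 differences of -0.57 ± 0.18, -0.51 ± 0.07 and -0.35 ± 0.09. The calls of Lcp65Ag2 and Pcp each ended without any one of 4 libraries (Chrom2-5R replicate 1 or 2 or Chrom3-5R replicate 1 or 4 for Lcp65Ag2, Chrom2-5R replicate 3 or 4 or Chrom3-5R replicate 1 or 4 for Pcp), with adjusted p up to 0.15 and 0.078.

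Between the 160R groups, 3 members were higher in Chrom3-160R than in Chrom2-160R (4.35%) and 4 were lower (5.8%), where 11.8% and 10.7% of all tested genes were. Cpr47Ea stood at 1.34, 1.91, 1.67 and 4.19 CPM in Chrom3-160R heads, against 1.42, 0.429, 0.54 and 0.359 CPM in Chrom2-160R heads, a log2 difference of 1.79 ± 0.43 (SE, edgeR adjusted p = 0.0085), with overlap through Chrom2-160R replicate 1. Cpr76Bc stood at 23.1, 14.9, 14.9 and 18.8 CPM in Chrom3-160R heads, against 13.3, 8.97, 8.67 and 12.1 CPM in Chrom2-160R heads, and Cpr60D at 4.64, 4.29, 4.66 and 3.89 CPM in Chrom3-160R heads, against 3.14, 2.52, 2.8 and 3.3 CPM in Chrom2-160R heads. Cpr76Bc did not overlap between the groups, and neither did Cpr60D. Their log2 differences were 0.74 ± 0.18 and 0.57 ± 0.11 (edgeR adjusted p = 0.0086 and 0.0015).

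The lower members were Cpr49Af at -1.20 ± 0.23, Cpr50Ca at -0.99 ± 0.23, Ccp84Ag at -0.72 ± 0.24 and Pcp at -0.53 ± 0.18 (SE, edgeR adjusted p = 0.0016, 0.0052, 0.038 and 0.037). Cpr50Ca stood at 2.1, 2.51, 2.03 and 1.93 CPM in Chrom3-160R heads, against 6.13, 3.44, 3.98 and 3.62 CPM in Chrom2-160R heads, and at 1.43, 2.68, 1.78 and 1.24 CPM in Chrom3-5R heads, against 3.3, 5.08, 3.49 and 3.44 CPM in Chrom2-5R heads. It was lower in the chromosome 3 line at both repeat lengths in all alternatives run. The Ccp84Ag call ended without Chrom2-160R replicate 1 or 3 or Chrom3-160R replicate 1, 2 or 4 and when only the 8 libraries compared were fitted, with adjusted p up to 0.17. Pcp was called lower at both repeat lengths too, but between the 160R groups its call ended without any one of 6 libraries, those other than Chrom2-160R replicate 3 and Chrom3-160R replicate 1, with adjusted p up to 0.12. Cpr60D was higher in the chromosome 3 line at both repeat lengths.

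Reads of overlapping genes limit some of these values. Among the members, 20 overlap another annotated gene, 19 of them tested, and 13 of the tested lie whole within the other gene. The libraries kept strand, but over 1624 pairs of genes nested on opposite strands the inner gene had no more counts than its host in 1619, and in the 21 pairs where the inner gene covers at least 80% of the host the median share was 0.94, so counts of both strands cannot be told apart. Pcp lies within an intron of ade3, whose counts were 95.68 times larger. Cpr64Aa, Cpr64Ab, Cpr64Ac and Cpr64Ad lie within CG43367, and TwdlX, TwdlY, TwdlZ and Twdlalpha within CG9634. TwdlE shares 75.1% of its span with lectin-28C, which had 10.23 times its counts, and Cpr11B lies within CG43921, with 10.78 times its counts. Cpr72Ec, the 49A genes, Cpr97Ea, Cpr97Eb, Cpr100A, TwdlV, TwdlG, Edg78E and Ccp84Ag overlap no annotated gene.

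Other genes of the cuticle were counted against all tested genes, of which 12.8% rose and 13.3% fell on chromosome 2, and 0.673% rose and 1.43% fell on chromosome 3. Of 19 genes of chitin synthesis and organisation, 8 rose on chromosome 2 and 0 fell, with a median log2 change of 0.96, against 0.01 for all tested genes. On chromosome 3 none was called by edgeR, with a median of 0.77. Gfat1, the first enzyme on the way to the sugar of chitin, changed by 0.55 ± 0.14, and mmy, which activates that sugar, by 0.42 ± 0.12 (log2, SE, edgeR adjusted p = 0.012 and 0.017). The chitinase Cht3 changed by 0.29 ± 0.06 and the chitin-binding Gasp by 1.23 ± 0.36 (edgeR adjusted p = 0.0025 and 0.025). Without Chrom2-160R replicate 1 the count of 8 was 3, with Gfat1, mmy and Cht3 still called and Gasp at an adjusted p of 0.079. It was also 3 without any one of Chrom2-5R replicates 1, 2 and 3. With Chrom2-160R replicate 1 and Chrom3-160R replicate 4 both left out it was 10, at a median of 0.49, where 10.9% of all tested genes rose. Those libraries were picked after seeing the data. The summed level of the list was 1477, 635, 672 and 629.6 CPM in Chrom2-160R heads, against 424, 447, 439 and 499 CPM in Chrom2-5R heads, and 551, 649.6, 644 and 1232 CPM in Chrom3-160R heads, against 489, 624, 464 and 492 CPM in Chrom3-5R heads. Chrom2-160R replicate 1 was the highest of its group in 18 of the 19 genes and Chrom3-160R replicate 4 in 16.

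Of 13 tested cuticle structural genes with other names, 6 rose on chromosome 2 and 0 fell (median log2 change 0.76), where 12.8% and 13.3% of all tested genes did, while 0 were called on chromosome 3 (median 0.82). The count of 6 was 3 without Chrom2-160R replicate 1 or any one of Chrom2-5R replicates 1, 2 and 3. With Chrom2-160R replicate 1 and Chrom3-160R replicate 4 both left out, 6 rose and 1 fell on chromosome 2 (median 0.42). CG7214 stood at 423, 140.0, 169 and 123 CPM in Chrom2-160R heads, against 1.23, 0.812, 1.45 and 7.92 CPM in Chrom2-5R heads, and Acp1, an adult cuticle protein, at 136, 16.4, 23.2 and 15 CPM in Chrom2-160R heads, against 0.471, 0.558, 0.43 and 2.18 CPM in Chrom2-5R heads. All 4 Chrom2-160R libraries lay above all 4 Chrom2-5R libraries in both. On chromosome 3 CG7214 stood at 33.9, 73.2, 89.4 and 218 CPM in Chrom3-160R heads, against 1.23, 143, 10.4 and 2.92 CPM in Chrom3-5R heads, and Acp1 at 11.7, 14.3, 14.3 and 79.6 CPM in Chrom3-160R heads, against 0.202, 21, 1.64 and 0.361 CPM in Chrom3-5R heads. Replicate 2 was again the high library of Chrom3-5R. The chromosome 2 changes were 4.02 ± 0.99 for CG7203, 0.36 ± 0.10 for CG30101, 6.07 ± 1.55 for CG7214 and 5.54 ± 1.70 for Acp1 (log2, SE, edgeR adjusted p = 0.011, 0.012, 0.013 and 0.03). Without Chrom2-160R replicate 1, Acp1 was not called (adjusted p = 0.095), nor was it without any one of the Chrom2-5R libraries, while the calls of CG7203, CG30101 and CG7214 held without each library in turn.

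Of 17 genes of cuticle tanning and pigment, 7 rose and 2 fell on chromosome 2 (median 0.39), against 12.8% and 13.3% of all tested genes, and 1 rose on chromosome 3 (median 0.05). Dopa decarboxylase (Ddc) and phenylalanine hydroxylase (Hn) were the 2 that fell, at -0.32 ± 0.04 and -0.48 ± 0.08, while the multicopper oxidase gene Mco1 and black (b) rose at 1.72 ± 0.29 and 0.48 ± 0.10 (log2, SE, edgeR adjusted p = 4.6e-05, 2.5e-04, 8.7e-04 and 0.0039). The gene that rose on chromosome 3 was amd, at 0.73 ± 0.17 (edgeR adjusted p = 0.043), a call that ended without any one of the libraries compared but Chrom3-160R replicate 1. Of 13 zona pellucida domain genes of the apical matrix, 3 rose and 1 fell on chromosome 2 (12.8% and 13.3% of all tested genes) and 0 were called on chromosome 3. Miniature (m) fell at -0.82 ± 0.10, and tyn, pot and qsm rose at 0.61 ± 0.12, 0.82 ± 0.23 and 0.44 ± 0.13 (edgeR adjusted p = 3.9e-05, 0.0022, 0.018 and 0.023). Without Chrom2-160R replicate 1 the pot call ended (adjusted p = 0.052) and 3 of the 13 fell, and the qsm call ended without Chrom2-5R replicate 1 or 3.

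Genes of the hormone pathway that times moulting were called about as often as all genes, of which 26.1% were called in either direction on chromosome 2. Of 22 ecdysone pathway and epidermal regulators, 2 rose and 3 fell on chromosome 2, with a median log2 change of -0.03, and 0 were called on chromosome 3 (median -0.06). The early gene Eip78C changed by 0.38 ± 0.07, Hr39 by -0.16 ± 0.04, the ecdysone co-receptor gene usp by -0.12 ± 0.03 and ftz-f1 by 0.15 ± 0.04 (log2, SE, edgeR adjusted p = 4.8e-04, 0.0027, 0.02 and 0.023). Of 7 tested hormones and receptors of moulting and eclosion, Eh, eclosion hormone, rose at 2.25 ± 0.57 and ETHR fell at -0.38 ± 0.11 on chromosome 2 (edgeR adjusted p = 0.0095 and 0.018). The calls of usp (Chrom2-160R replicates 1 and 2, Chrom2-5R replicate 2), ftz-f1 (Chrom2-160R replicates 2 and 3, Chrom2-5R replicates 1, 2 and 3) and ETHR (Chrom2-160R replicate 2, Chrom2-5R replicates 2 and 3) ended without any one of the libraries given with them.

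Of 22 muscle markers, 7 rose on chromosome 2 and 0 fell (median log2 change 0.48), where 12.8% and 13.3% of all tested genes did, and 0 were called on chromosome 3 (median 0.43). Troponin T (up), TpnC25D, Tm1 and troponin I (wupA) rose at 0.99 ± 0.24, 1.10 ± 0.27, 0.58 ± 0.16 and 0.66 ± 0.18 (SE, edgeR adjusted p = 0.0089, 0.01, 0.016 and 0.019). Leaving out Chrom2-160R replicate 1 or replicate 2 of Chrom2-5R made the count of 7 a 4, leaving out Chrom2-5R replicate 3 made it 3, and 2 fell without Chrom2-160R replicate 1. The wupA call ended without Chrom2-5R replicate 3. With Chrom2-160R replicate 1 and Chrom3-160R replicate 4 both left out, 8 rose and 3 fell on chromosome 2 (median 0.20). The summed level of the list was 13958 CPM in Chrom2-160R replicate 1 and 8215 to 8419 CPM in the other 3 libraries of that group, against 6548 to 7679 CPM in Chrom2-5R. It was 9336 CPM in Chrom3-160R replicate 4 and 5822 to 7421 CPM in the other 3, against 5756 to 6877 CPM in Chrom3-5R. Those 2 libraries were the highest of their groups in 21 and 20 of the 22 genes. No gene of the list was at 0 in all libraries, and its part in the cuticle protein differences was not tested.

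Peb, which encodes an ejaculatory bulb protein, stood at 99.9, 4.83, 0.708 and 3.04 CPM in Chrom2-160R heads, against 0, 0.254, 0.215 and 0.348 CPM in Chrom2-5R heads, and at 0.262 CPM in Chrom3-160R replicate 4. Chrom2-160R replicate 1 was by far the highest, and the other 3 Chrom2-160R libraries also lay above all Chrom2-5R libraries. Of 9 tested genes of the male reproductive tract, 1 rose and 2 fell on chromosome 2 (12.8% and 13.3% of all tested genes), Peb at 6.81 ± 1.72, Est-6 at -0.60 ± 0.13 and PebIII at -0.22 ± 0.08 (edgeR adjusted p = 0.012, 0.0044 and 0.049), and 0 were called on chromosome 3. The PebIII call ended without any one of Chrom2-160R replicates 2, 3 and 4 and Chrom2-5R replicates 1 and 2. The list summed to 1182, 894, 852 and 832 CPM in Chrom2-160R, against 1305, 1183, 1145 and 960.0 CPM in Chrom2-5R, and 871 to 919 CPM in Chrom3-160R, against 901 to 1061 CPM in Chrom3-5R. Chrom2-160R replicate 1 was the highest of its group in all 9 genes and Chrom3-160R replicate 4 in 1. Its part in the cuticle protein differences was not tested.

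Of 12 fat body markers, 7 fell on chromosome 2 and 1 on chromosome 3, where 13.3% and 1.43% of all tested genes did, and 0 rose. Rfabg, which carries lipid in the blood, fell at -0.66 ± 0.06 on chromosome 2 and -0.26 ± 0.06 on chromosome 3 (SE, edgeR adjusted p = 1.5e-06 and 0.033), and Mtp, ACC and Yp3 fell at -0.77 ± 0.08, -0.52 ± 0.08 and -0.40 ± 0.08 on chromosome 2 (edgeR adjusted p = 5.1e-06, 2.6e-04 and 0.0019). The Rfabg call on chromosome 3 ended without any one of 6 libraries, those other than Chrom3-160R replicate 1 and Chrom3-5R replicate 2. The list summed to 6998 to 8075 CPM in Chrom2-160R, against 11915 to 13552 CPM in Chrom2-5R, and to 8743 to 9719 CPM in Chrom3-160R, against 10982 to 12117 CPM in Chrom3-5R. Of 7 genes of tendon and tracheal cells, mspo rose on chromosome 2 at 0.12 ± 0.04 (edgeR adjusted p = 0.036), where 12.8% of all tested genes rose. On chromosome 3, 0 were called. The mspo call ended without any one of 6 libraries, those other than Chrom2-160R replicate 1 and Chrom2-5R replicate 4. Of the 16 neuronal, photoreceptor and glial markers, 2 rose and 3 fell on chromosome 2, where 12.8% and 13.3% of all tested genes did. On chromosome 3, 0 of them were called. Syt1 changed by 0.24 ± 0.04, Rh4 by -0.30 ± 0.07 and brp by 0.20 ± 0.05 on chromosome 2 (edgeR adjusted p = 8.0e-04, 0.0035 and 0.0036). Without Chrom2-5R replicate 4, 6 of the 16 fell. The part of these markers in the cuticle protein differences was not tested.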

How the data were processed

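RNA sequencing was done on 16 libraries from male fly heads, 4 in each of 4 groups. The authors deposited raw read counts as whole numbers for each annotated gene, with gene coordinates. Per the submitters' processing notes, Trimmomatic, STAR, bedtools and DESeq were used with the builds BDGP6 and mm10. Their versions and settings, and the use of mm10, are not stated by the sources used here. Every file holds 17558 genes, and library totals ran from 11452337 to 53615117 counts. No sequences of the members are shown.

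Genes were filtered with filterByExpr by group (minimum count 10), which left 13525, and were scaled by TMM. A model with 4 group means over all 16 libraries was fitted with edgeR 4.0.16 (R 4.3.3, robust quasi-likelihood test). P-values were adjusted by Benjamini-Hochberg over all tested genes, and a gene was called at an adjusted p below 0.05. The comparisons were 160R minus 5R in each line, their difference, and the lines at each repeat length. Fitted log2 changes carry edgeR's prior count. The script was tested on simulated counts with known changes.

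Members named with values were those called between 160R and 5R or in the difference of lines, the 10 highest per kilobase, the highest of each family, the 3 in each group most led by 1 library (at least 50 counts there), and the 6 most different between lines in each direction. Up to 4 called genes were named from each other list. Cpr66D, Cpr49Ah, Edg91 and the 14 members led by 2 libraries were named after their values were seen. The members and all gene lists were chosen with earlier results of these data known, and the list of corneal lens genes was added last. Alternatives were RLE scaling, no filter and a minimum count of 50, DESeq2 1.42.0, limma-voom (limma 3.58.1), no robust option, only the 8 libraries compared, the replicate number as a block, each library left out, and the leading libraries left out. Replicate libraries of a group differed by a chi-square per degree of freedom of 6.94 to 43.9, so each was kept as a separate library. The transgene itself was not analysed here.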

Additional observations from a re-analysis of the deposited data

Results flagged for a closer look

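Within groups of 4 libraries, values were picked out where 1 library lay far from its 3 group mates by Dixon's criterion at the 95% level. Of 148 groups of values examined, 32 met it, and chance alone gives about 1 in 20. These 2 rates cannot be set against each other, since some of the members were named because 1 library led them, and since the same few libraries recur. In Chrom2-160R it was replicate 1 each time: 108 CPM for Cpr100A, 78.4 for Cpr76Bd, 73.6 for Cpr97Eb, 63.8 for Cpr97Ea, 62.5 for Cpr62Bc, 5.88 for Ccp84Ab, 3.5 for Lcp65Ac and 1.42 for Cpr47Ea. In Chrom3-160R it was replicate 4: 89.4 CPM for Cpr100A, 56.6 for Cpr76Bd, 55.3 for Cpr97Eb, 50.5 for Cpr97Ea, 50.2 for Cpr62Bc, 7.17 for Ccp84Ab and 1.75 for Lcp65Ac.

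Among the controls, Chrom3-5R replicate 2 stood apart at 19.7 CPM for Cpr100A, 14.2 for Cpr97Eb, 5.75 for Cpr76Bd, 5.6 for Cpr62Bc and 4.28 for Cpr97Ea. Chrom2-5R replicate 4 stood apart at 5.48 CPM for Cpr100A and 3.26 for Cpr62Bc, and Chrom2-5R replicate 2 at 5.08 CPM for Cpr50Ca.

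Summed over members, Chrom2-160R replicate 1 stood apart at 1702 CPM for all 125 genes, 1179.9 CPM without Cpr72Ec, 1653 CPM for Cpr, 9.68 CPM for Ccp84 and 7.25 CPM for Lcp. Chrom3-160R replicate 4 stood apart at 1020.4 CPM without Cpr72Ec and 10.2 CPM for Ccp84, Chrom3-5R replicate 2 at 711 CPM without Cpr72Ec, and Chrom2-5R replicate 4 at 2.09 CPM for Edg.

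The 160R change differed between the lines by edgeR's test of the difference, chromosome 3 minus chromosome 2 on the log2 scale, for TwdlV (-3.04), Cpr49Af (-2.72), Cpr72Ec (-0.69) and Edg78E (1.69).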

How the results depend on the processing

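Between 160R and 5R on chromosome 2, 10 members rose and 1 fell. Limma-voom gave 6 higher, and leaving out single libraries 4 to 11. The count lower was 2 with DESeq2, 2 without the robust option, 0 with a minimum count of 50 (Edg78E then has too few counts) and 3 without Chrom2-160R replicate 1, Chrom3-160R replicate 4 and Chrom3-5R replicate 2 together, and 1 to 3 leaving out single libraries. On chromosome 3, where 3 rose and 2 fell, 10 rose without those 3 libraries, a choice made after seeing the data, and 1 fell without the first 2 of them. Leaving out single libraries gave 1 to 3 higher and 1 to 2 lower. The 4 members that differed between the lines were 7 without those 3 libraries and 2 to 6 without single ones. For Chrom3-5R minus Chrom2-5R, 8 higher and 6 lower became 6 to 7 and 4 to 8 without single libraries, and 12 lower without the 3. For Chrom3-160R minus Chrom2-160R, 3 higher and 4 lower became 3 to 5 and 2 to 7 without single libraries, with 6 higher without the 2 leading libraries and 7 without the 3. The cause of these shifts was not tested.

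The labels give all groups the replicate numbers 1 to 4. Deviations of same-numbered libraries from their group means correlated at -0.03 to 0.07 on chromosome 2, -0.25 to 0.07 on chromosome 3, -0.11 to 0.12 between the 5R groups and -0.39 to 0.25 between the 160R groups, so the numbers do not pair the libraries. In these 4 comparisons 0, 0, 1 and 2 of the 8 libraries correlated best with their own number. With the replicate number as a block, 6 members rose and 2 fell on chromosome 2, 1 rose on chromosome 3, 2 differed between the lines, and 2 were lower in Chrom3-160R than in Chrom2-160R. Cpr72Ec was then called neither on chromosome 3 nor between the lines (adjusted p = 0.066 and 0.073).

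The 41 calls of single members were recomputed 759 times in all: 615 values kept their call, 144 kept their direction but lost it, and 0 turned round. In 23 of the 41 no alternative ended the call. Depth limits the low members, since Cpr49Af had 3 to 8 counts in each Chrom2-5R library and 56 members could not be tested.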
